A study of Mus musculus with 70 samples.

Results

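The genes described here are 41 stromal matrix and fibroblast genes, followed through CD45- and CD45+ cells of B16F10 tumors. They were chosen by symbol, as a list of collagens, proteoglycans, matrix glycoproteins, collagen-processing enzymes and fibroblast or mural surface proteins, and all 41 were found among the 55487 named gene lines of each count table. B16F10 is a mouse melanoma cell line that was grown under the skin of both flanks of young male and female C57BL/6 mice. Control mice received a sham procedure, and the other mice received partial ablation of 1 tumor by histotripsy, which breaks tissue apart with focused ultrasound and without heat. Histotripsy-treated tumors were the ablated ones, and histotripsy-abscopal tumors grew on the other flank of the same mice and received no ultrasound. Cells were flow-sorted on CD45, a surface protein of blood-derived cells, 3 or 7 days after the procedure. The CD45- fraction gave 4 libraries of control, 7 of histotripsy-treated and 7 of histotripsy-abscopal tumors on day 3, and 11, 3 and 4 on day 7. The CD45+ fraction had 4, 6 and 7 libraries on day 3 and 10, 3 and 4 on day 7. All tumors came from a single injected line, the groups were not randomized, and the labels give neither the mouse, its sex nor a batch for a library. The p-values therefore measure the spread between libraries, and libraries may share a mouse.

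Fibroblasts are the main source of interstitial matrix in the dermis and in tumors grown beneath it. They secrete fibrillar collagen as procollagen, which is folded in the endoplasmic reticulum, trimmed outside the cell and crosslinked by lysyl oxidases, and small proteoglycans bind to and space the fibrils. Basement membranes are built from other collagens, chiefly type IV, which endothelial cells, pericytes and melanoma cells also make. Several matrix genes, among them those for SPARC, fibronectin and the collagen chaperone HSP47, are known to be transcribed by melanoma cells too. Melanoma cells and fibroblasts both lack CD45, so both are sorted into the CD45- fraction. In bulk libraries of sorted cells, a change in the number of cells of a type and a change in RNA per cell cannot be told apart.

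Depth was 1080212 to 3820705 counts per library in the CD45- fraction and 887798 to 2824959 in the CD45+ fraction. Levels are given as CPM, the count scaled to a library total of 1000000, and QuantSeq counts the 3' end of each transcript, so they do not scale with transcript length. The labels of the fractions were checked on defining markers. The melanocyte gene Mlana was at 1161 to 1721 CPM in all CD45- libraries, and Ptprc, which encodes CD45, was at no more than 1.48 CPM there. The summed level of 10 melanoma genes was 28347 to 43737 CPM on day 3, with the lowest value in histotripsy-treated library 3, and 34177 to 40855 CPM on day 7. The keratinocyte gene Krt14 was at 0 in all CD45- libraries but 1, where it was at 0.348 CPM.

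The 41 genes together took a small and uneven share of each CD45- library. On day 3 their summed level was 2367, 4009, 1583 and 1338 CPM in the 4 control libraries. In the 7 histotripsy-treated libraries it was 11746, 4960, 23468, 1494, 2113, 6385 and 3614 CPM, and in the 7 histotripsy-abscopal libraries it was 2415 to 3716 CPM. Treated libraries 1 and 3 stood far above all others, while treated libraries 4, 5 and 7 lay within the range of the controls. On day 7 the summed level was 1489 to 2972 CPM in the 11 controls, 1907, 1800 and 8533 CPM in the treated libraries, and 6960, 5036, 1861 and 2861 CPM in the abscopal libraries. In each treated or abscopal group with high libraries, other libraries of the same group were at control level.

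**Figure D1:**
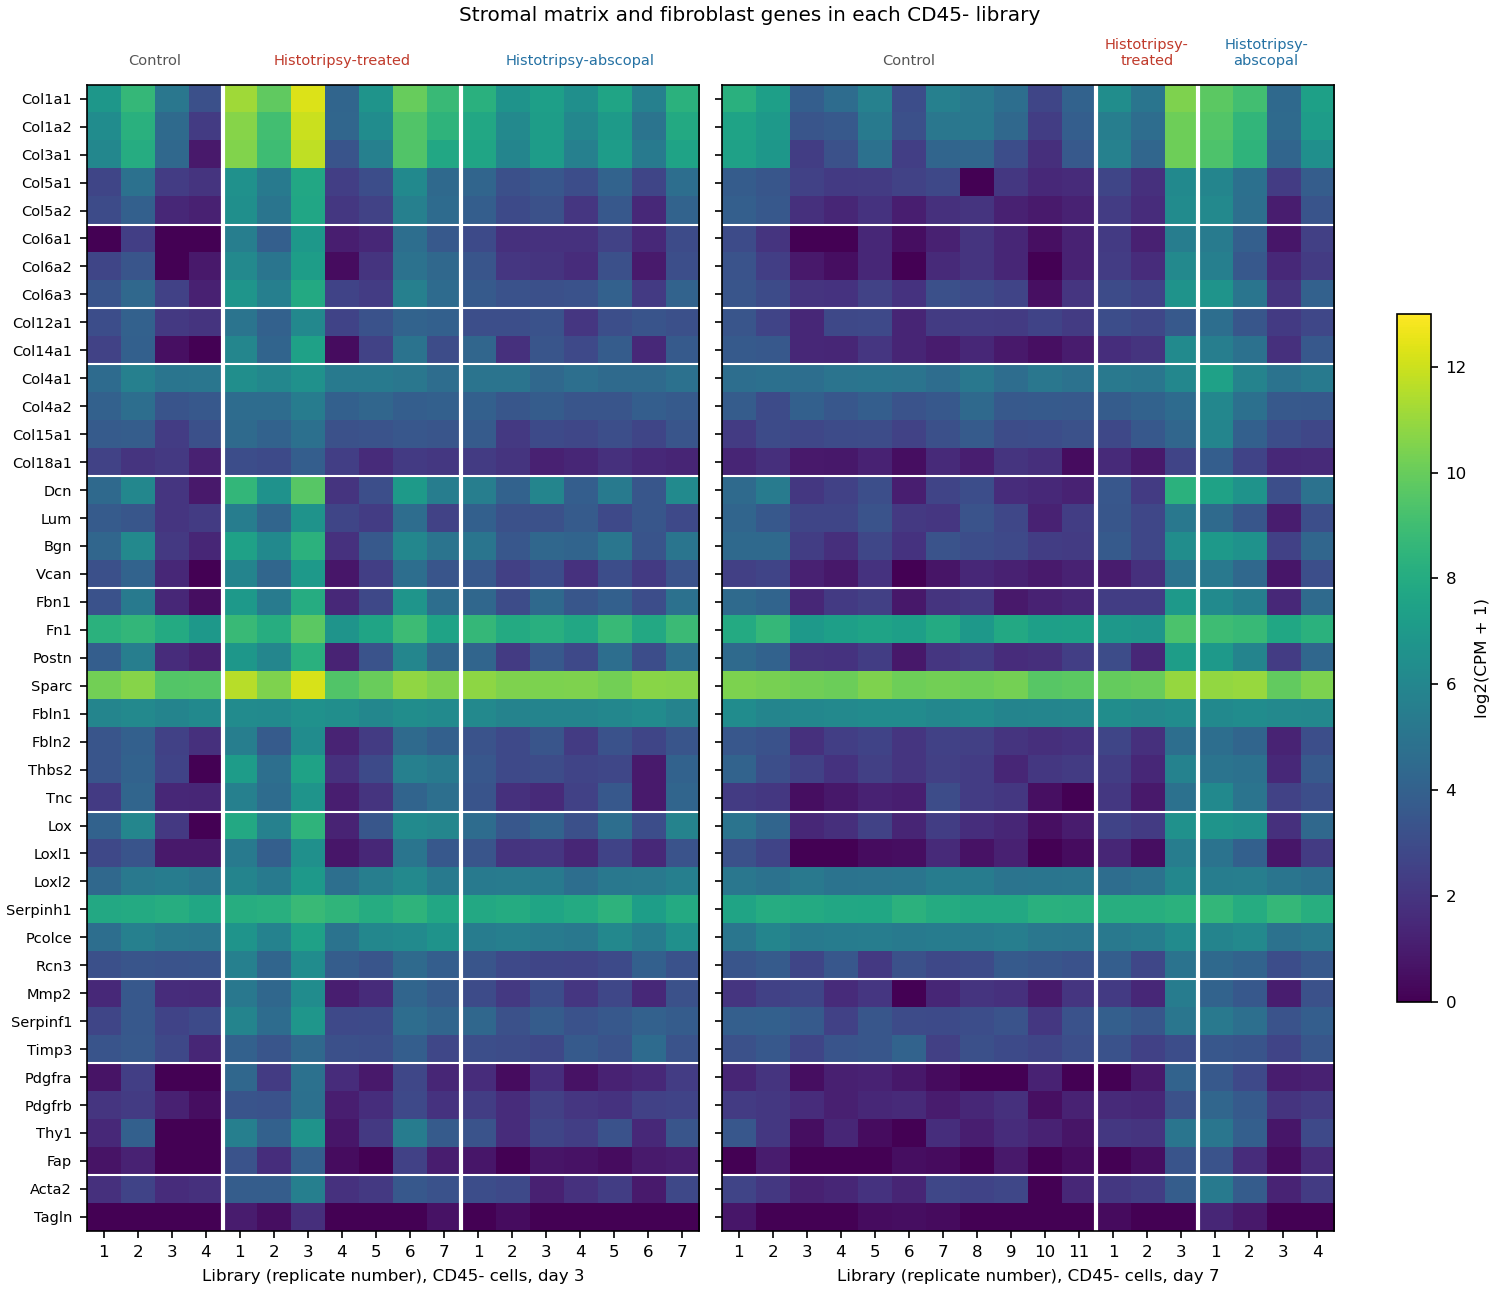
Level of the 41 genes, as log2(CPM + 1), in each of the 36 CD45- libraries on day 3 (left) and day 7 (right), with libraries in columns by group and genes in rows by role. Treated library 3 is the brightest column on day 3, treated library 3 and abscopal libraries 1 and 2 are the brightest on day 7, and the rows of Fbln1 and Serpinh1 keep nearly the same shade across all columns.

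Differences between groups were tested gene by gene on the counts. Of the 41 genes, 39 passed the filter on low counts on each day, and Fap and Tagln did not. On day 3, 0 of the 39 were called between histotripsy-treated and control tumors at an adjusted p under 0.05 (edgeR's quasi-likelihood test), where 0.0916% of the 10921 genes tested were called. All 39 had a positive log2 fold change, against 52.1% of genes tested, and 34 had an unadjusted p under 0.05, against 10.6% of genes tested. Their median log2 fold change was 2.38, and that of all genes was 0.01. For 0 of the 39 did every treated library exceed every control library, which 0.595% of genes did. The count depended on the filter and the tool: DESeq2 called 1 of the 39, and edgeR without the filter, fitted to 28941 genes of which it called 312, called 32 of the 41. Without treated library 3, 0 members were called and the median log2 fold change was 1.52. In that fit 21 of 38 members tested had an unadjusted p under 0.05, with the share of all genes not given here.

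In histotripsy-abscopal against control tumors on day 3, 0 of 39 members were called and 0% of genes were. There 0 of 39 had an unadjusted p under 0.05 by edgeR, against 5.19% of genes, 31 of 39 had a positive log2 fold change, against 50.1% of genes, and the median was 0.35. DESeq2 and edgeR without the filter also called 0. Without control library 2 the median was 1.31, and without control library 4 it was -0.01. Between treated and abscopal tumors on day 3, 0 of 39 were called, against 0.147% of genes, and 36 had an unadjusted p under 0.05, against 13.5% of genes. The median log2 fold change was 2.08. Rcn3, a calcium-binding protein of the secretory pathway, had the lowest adjusted p, 0.0534. DESeq2 called 6 members, edgeR without the filter called 32 of 41, and edgeR without treated library 4, 5 or 7 called 8, 7 and 2. The 0.147% belongs to the main fit, and the share of all genes called in these other fits is not given here.

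On day 7, 6 of 39 members were called between histotripsy-abscopal and control tumors, against 0.291% of the 10996 genes tested. All 6 rose, and 0.264% of genes were called higher. They were Tnc, Pdgfrb, Bgn, Col4a1, Col6a3 and Vcan. The log2 fold change was positive for 38 of the 39, against 48.6% of genes, and its median was 2.34, against -0.01 over all genes. In this comparison 34 members had an unadjusted p under 0.05, against 9.56% of genes. For 0 of the 39 were all abscopal libraries above all controls, which held for 0.236% of genes. The calls depended on single libraries and on the fit. Without abscopal library 1, without abscopal library 2, or without control library 3, 4, 8 or 11, 0 members were called, without control library 6, 9 or 10 there was 1, and without control library 5 or 7 there were 3. Without control library 2 the count was 10, without control library 1 or abscopal library 4 it was 13, and without abscopal library 3 it was 27. DESeq2 called 1 member and limma-voom 0, a fit of the 2 groups alone called 17, and a fit without the filter called 33 of 41. The share of all genes called in these other fits is not given here, so the counts show only how the calls depended on the fit. Without abscopal library 1, where 0 members were called, the median log2 fold change was 1.49. In that fit 19 of 36 members tested had an unadjusted p under 0.05, with the share of all genes not given here.

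In histotripsy-treated against control tumors on day 7, 0 of 39 members and 0% of genes were called. In that comparison 26 members had an unadjusted p under 0.05, against 6.08% of genes, 38 had a positive log2 fold change, against 50.7%, and the median log2 fold change was 2.09. DESeq2 called 0 there as well, and edgeR without the filter called 24 of 41, with the share of all genes in that fit not given here. These values rested on treated library 3, and without it 1 of 39 members had an unadjusted p under 0.05 and the median log2 fold change was 0.03. Without treated library 2, 5 members were called, and without treated library 1, 2 were, also with no share of all genes given here. Between treated and abscopal tumors on day 7, 0 members and 0% of genes were called by edgeR or, for the members, by DESeq2, 1 member had an unadjusted p under 0.05, against 6.74% of genes, and the median log2 fold change was -0.08. The comparisons of treated and of abscopal tumors with controls use the same control libraries, so they are set side by side only.

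**Figure D2:**
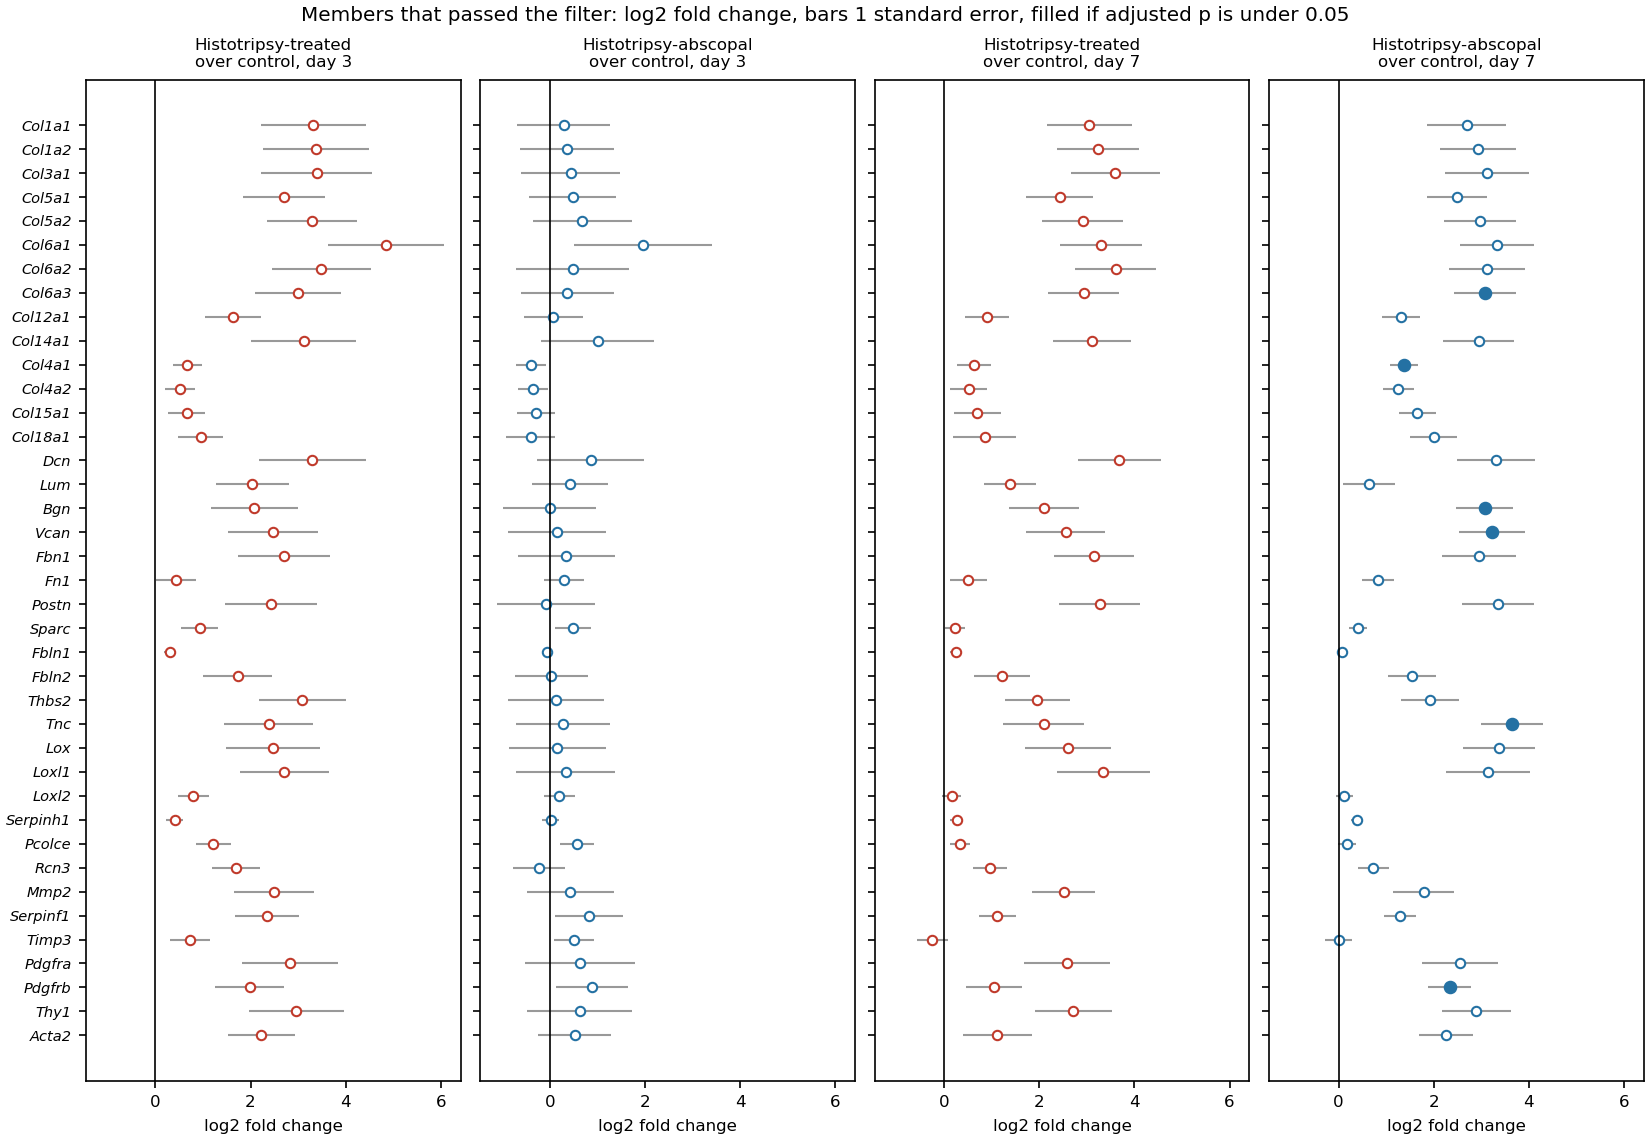
Log2 fold change of the 39 members that passed the filter in the CD45- fraction, for histotripsy-treated and histotripsy-abscopal tumors over control on days 3 and 7. Bars are 1 standard error and filled points mark an adjusted p under 0.05. Filled points occur in the day 7 abscopal panel, for 6 genes, and Fbln1 and Serpinh1 lie within 0.41 of 0 in all panels.

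The fibrillar collagens build the fibrils of dermis and scar. Type I collagen is assembled from the products of Col1a1 (chromosome 11, 94936224 to 94953042, plus strand, GRCm38) and Col1a2, type III from that of Col3a1, and type V, which sets fibril diameter, from those of Col5a1 and Col5a2. On day 3 Col1a1 was at 117, 405, 34.9 and 7.90 CPM in control libraries. It was at 2306, 905, 5019, 17.9, 105, 1008 and 455 CPM in treated libraries, and at 49.1 to 312 CPM in abscopal libraries, with a median of 160 CPM. Treated libraries 4 and 5 lay inside the control range and the other 5 lay above it. The log2 fold change of treated over control was 3.32 ± 1.1 (SE), with an adjusted p of 0.264. Col1a2, at 3.38 ± 1.11, and Col3a1, at 3.39 ± 1.16, had adjusted p-values of 0.264 and 0.281. Abscopal over control, the log2 fold changes of Col1a1, Col1a2 and Col3a1 were 0.29 ± 0.97, 0.37 ± 0.99 and 0.44 ± 1.04.

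On day 7 Col1a1 was at 5.62 to 300 CPM in controls, with a median of 25.4 CPM, at 83.2, 31.9 and 1409 CPM in treated libraries, and at 860, 527, 20.6 and 169 CPM in abscopal libraries. Treated libraries 1 and 2 and abscopal libraries 3 and 4 lay within the control range. The log2 fold change was 3.05 ± 0.89 for treated tumors (adjusted p = 0.382) and 2.70 ± 0.83 for abscopal tumors (adjusted p = 0.194). Col3a1 was at 2.34 to 171 CPM in controls, at 51.3, 18.5 and 1132 CPM in treated libraries, and at 672, 347, 17.8 and 88.9 CPM in abscopal libraries. Its log2 fold changes were 3.60 ± 0.93 (adjusted p = 0.315) and 3.12 ± 0.88 (adjusted p = 0.138). Those of Col1a2 were 3.23 ± 0.86 and 2.93 ± 0.80, and those of Col5a1 and Col5a2 lay between 2.43 and 2.98 over both comparisons. Of the 5 fibrillar collagens, 0 were called by edgeR in these comparisons with control. All 5 had an unadjusted p under 0.05 in treated tumors on both days, against 10.6% of genes on day 3 and 6.08% on day 7, and in abscopal tumors on day 7, against 9.56%. In abscopal tumors on day 3 0 of 5 did, against 5.19%. The Col1a2 value of treated tumors on day 7 rested on treated library 3 and was -0.13 without it.

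**Figure D3:**
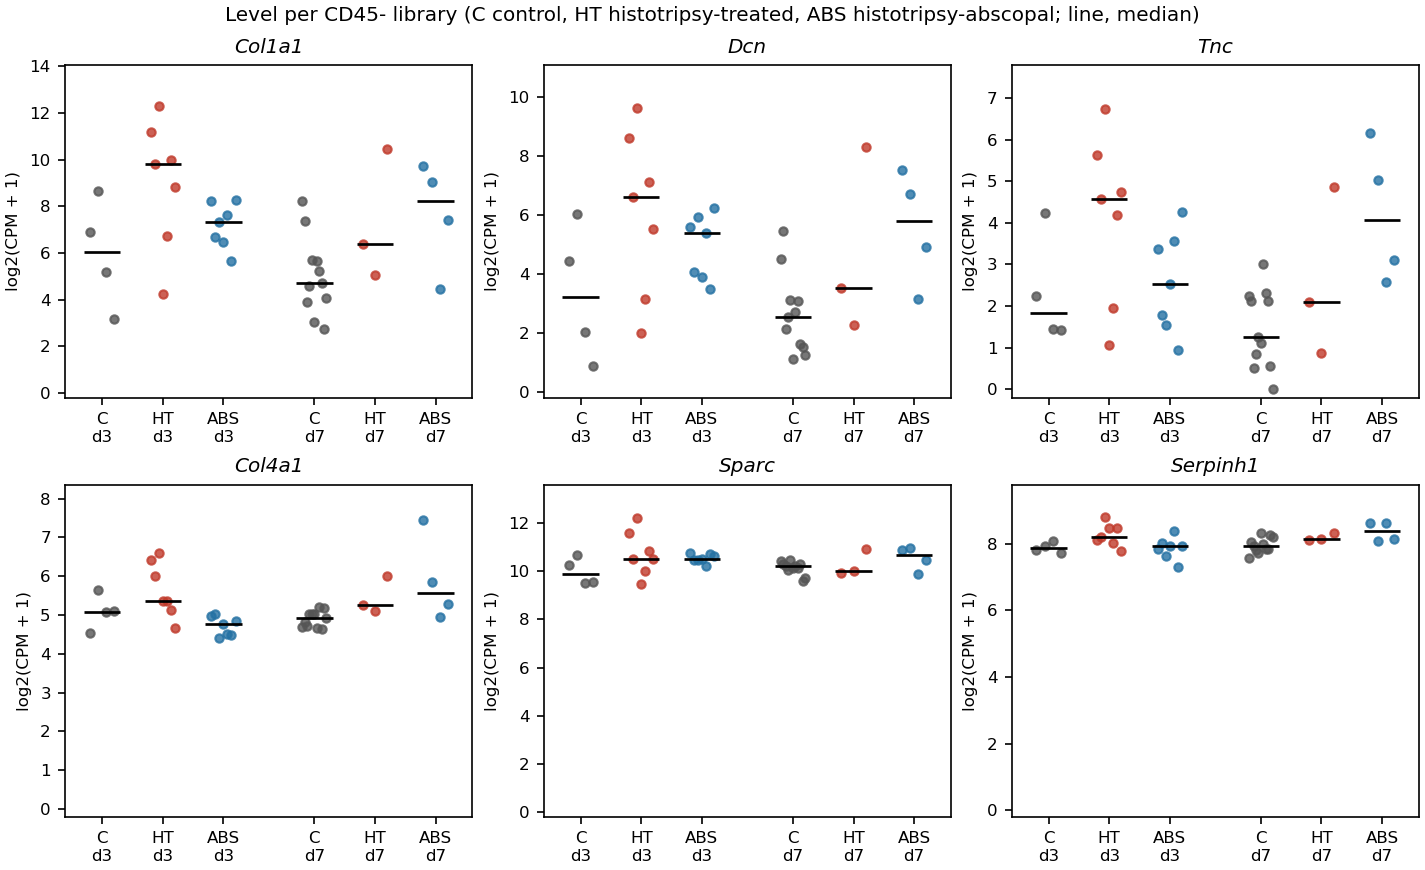
Level of 6 members in each CD45- library, as log2(CPM + 1), by group and day, with a line at the group's median. Col1a1, Dcn and Tnc spread widely within the treated and day 7 abscopal groups, abscopal library 1 stands highest for Col4a1 on day 7, and Serpinh1 stays between 156 and 450 CPM in all libraries.

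Type VI collagen forms beaded filaments around cells and is encoded by Col6a1, Col6a2 and Col6a3. Col6a3 (chromosome 1, 90765923 to 90843971, minus strand) was at 1.25 to 20.2 CPM in day 3 controls and at 108, 47.9, 241, 5.12, 4, 49.3 and 22.7 CPM in treated libraries. On day 7 it was at 0.468 to 9.73 CPM in controls, 6.82, 5.04 and 102 CPM in treated libraries, and 106, 31.9, 2.85 and 15.2 CPM in abscopal libraries. Of the abscopal libraries, 3 exceeded every control and library 3 did not. Col6a3 rose in abscopal tumors on day 7 by a log2 fold change of 3.08 ± 0.66, with an adjusted p of 0.0411. Col6a1 was at 0 in 3 of 4 day 3 controls and at 4.23 CPM in the fourth, so its log2 fold change in treated tumors, 4.84 ± 1.22 (adjusted p = 0.162), depends on how counts of 0 are handled. On day 7 its value in abscopal tumors was 3.33 ± 0.77, with an adjusted p of 0.0638. Col12a1 and Col14a1 encode collagens that sit on fibril surfaces. Col14a1 was at 0 to 14.6 CPM in day 3 controls and at 0.366 to 171 CPM in treated libraries. Col12a1 was at 2.91 to 15.5 CPM in those controls and at 5.12 to 65.9 CPM in treated libraries. Both genes were highest in treated library 3, and the groups overlapped.

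The summed level of the 4 basement membrane collagens was highest in treated library 3 on day 3, at 178 CPM, and in abscopal library 1 on day 7, at 311 CPM. Col4a1 (chromosome 8, 11198423 to 11312826, minus strand), which encodes a chain of the type IV network, was at 22.2 to 48.8 CPM in day 3 controls, at 85, 63.1, 95.1, 39.9, 40, 34.3 and 24.3 CPM in treated libraries, and at 20.3 to 31.3 CPM in abscopal libraries. The log2 fold change of treated over control was 0.67 ± 0.31 (adjusted p = 0.443). On day 7 Col4a1 was at 23.8 to 36.2 CPM in controls, at 37.4, 33.2 and 63.1 CPM in treated libraries and at 174, 56.2, 29.9 and 38.1 CPM in abscopal libraries. Of the abscopal libraries, all but library 3 exceeded the highest control. Treated libraries 1 and 3 did so too, and treated library 2 lay within the control range. Abscopal library 1 was the highest of all by far. Col4a1 rose in abscopal tumors on day 7 by 1.38 ± 0.29 on the log2 scale, with an adjusted p of 0.0365. Col4a2, the neighbouring gene on the opposite strand whose exons overlap it, was at 63.4 CPM in abscopal library 1 and at 6.71 to 20.4 CPM in controls. Col15a1 and Col18a1 encode collagens of vessel and epithelial basement membranes. These 3 genes had log2 fold changes from 1.26 to 2 in abscopal tumors on day 7, with adjusted p-values from 0.0685 to 0.082. In abscopal tumors on day 3 0 of the 4 basement membrane collagens had a positive log2 fold change, and their median was -0.37.

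Abscopal library 1 of day 7 also had the highest levels of markers of vessels and fat. The summed level of 10 endothelial genes was 246 CPM there and 89.3 to 140 CPM in the other 17 libraries of that day, and Pecam1, an endothelial adhesion protein, was at 23.7 CPM against 0 to 5.26 CPM. Pericyte and smooth muscle genes were at 174 CPM against 60.1 to 120 CPM, and 8 adipocyte genes at 34.8 CPM against 2.87 to 7.80 CPM. Of these lists, 1 endothelial, 2 pericyte and 5 adipocyte genes had 3 counts or fewer in every CD45- library, among them Cldn5, Myh11 and Adipoq, which define the 3 cell types. The fatty acid carrier gene Fabp4, known in fat and in capillaries and named here after its values were seen, made up 31.2 of the 34.8 CPM. In control tumors Pecam1 and Fabp4 were both lower in CD45- than in CD45+ cells. Their log2 differences were -4.09 and -2.19 on day 3, and -4.93 and -4.03 on day 7. The endothelial genes Egfl7, Eng and Vwf were higher in CD45- cells on both days, and Kdr was lower. The part of vessel and fat cells in the levels of Col4a1, Pdgfrb and the other members called was not tested. Without abscopal library 1 the log2 fold change of Col4a1 was 0.47, and that of Tnc was 2.65.

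Decorin (Dcn), lumican (Lum) and biglycan (Bgn) are small leucine-rich proteoglycans that bind collagen fibrils, and versican (Vcan) is a large proteoglycan of loose, provisional matrix. Dcn was at 20.4, 63.4, 3.02 and 0.832 CPM in day 3 controls and at 386, 96.2, 787, 2.93, 7.72, 137 and 44.8 CPM in treated libraries. Its log2 fold change was 3.30 ± 1.13, with an adjusted p of 0.281. On day 7 Dcn was at 1.16 to 42.2 CPM in controls, at 10.4, 3.78 and 313 CPM in treated libraries and at 181, 102, 7.83 and 28.6 CPM in abscopal libraries. The values were 3.68 ± 0.87 (adjusted p = 0.252) and 3.31 ± 0.82 (adjusted p = 0.0782). Lum gave 2.04 ± 0.76 in treated tumors on day 3 (adjusted p = 0.334) and 0.64 ± 0.54 in abscopal tumors on day 7 (adjusted p = 0.74).

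Bgn (chromosome X, 73483602 to 73495933, plus strand) was at 2.38 to 21.0 CPM in day 7 controls, 12, 5.88 and 82.0 CPM in treated libraries, and 126, 96.5, 4.62 and 18.4 CPM in abscopal libraries. Abscopal libraries 1 and 2 lay above all controls, and libraries 3 and 4 lay among them. Bgn rose in abscopal tumors by 3.07 ± 0.60 on the log2 scale, with an adjusted p of 0.0282. Vcan (chromosome 13, 89655312 to 89742509, minus strand) was at 0 to 5.28 CPM in day 7 controls, with 3 counts or fewer in 7 of the 11, at 0.975, 2.52 and 30.0 CPM in treated libraries, and at 36.7, 19.7, 0.711 and 7.62 CPM in abscopal libraries. All abscopal libraries but library 3 were above the controls. Vcan rose by 3.23 ± 0.70, with an adjusted p of 0.0431.

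The promoters of called members were set beside those of a steady and of the most variable member. Of the 41 genes, 26 had an entry among RefSeq promoters of GRCm38.p6, with 31 start sites, and the 150 bases before each start were searched for CCAAT (either strand), the GC box GGGCGG (either strand) and TATAAA (gene strand). At least 1 CCAAT was found in 7 of the 31 windows (22.6%) and in 24.5% of the windows of all 32851 RefSeq promoters, a GC box in 12 (38.7%) and in 28.6%, and TATAAA in 3 (9.68%) and in 4.84%. A match is a description of letters and not of a bound site. Capitals mark the matches in 5 windows, each read from the gene strand up to the base before the start.
Col3a1 (chr1:45311388-45311537, plus strand, the most variable member): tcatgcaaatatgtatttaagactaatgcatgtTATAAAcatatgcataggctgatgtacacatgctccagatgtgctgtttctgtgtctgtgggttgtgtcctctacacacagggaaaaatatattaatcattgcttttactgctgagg
Bgn (chrX:73483451-73483600, plus strand, called on day 7): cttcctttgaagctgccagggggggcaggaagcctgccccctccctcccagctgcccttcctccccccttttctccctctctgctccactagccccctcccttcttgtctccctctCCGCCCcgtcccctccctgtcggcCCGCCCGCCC
Col6a3 (chr1:90843972-90844121, minus strand, called on day 7): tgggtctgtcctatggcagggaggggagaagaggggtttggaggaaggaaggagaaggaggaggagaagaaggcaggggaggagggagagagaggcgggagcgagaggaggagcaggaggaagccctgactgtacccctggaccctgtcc
Vcan (chr13:89742513-89742662, minus strand, called on day 7): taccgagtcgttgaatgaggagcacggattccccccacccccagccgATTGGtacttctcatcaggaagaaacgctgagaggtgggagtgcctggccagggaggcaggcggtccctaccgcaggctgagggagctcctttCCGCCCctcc
Serpinh1 (chr7:99353240-99353389, minus strand, steady): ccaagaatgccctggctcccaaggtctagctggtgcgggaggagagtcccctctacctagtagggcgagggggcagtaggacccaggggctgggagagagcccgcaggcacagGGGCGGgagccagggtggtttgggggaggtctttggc
Of the 6 members called on day 7, 5 had an entry, and 3 of these are shown, with GC boxes in Bgn, both a CCAAT and a GC box in Vcan, and no match in Col6a3. Of the others, Col4a1 held a CCAAT and Tnc a TATAAA at 1 of its 2 starts.

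Among the glycoproteins, tenascin-C (Tnc; chromosome 4, 63959785 to 64047015, minus strand) and periostin (Postn) are proteins of wound and tumor stroma. Tnc was at 3.70, 17.8, 1.72 and 1.66 CPM in day 3 controls, and at 48.9, 22.8, 106, 1.1, 2.86, 17.1 and 25.9 CPM in treated libraries. All 4 controls lay within the range of the treated libraries, and the log2 fold change was 2.38 ± 0.93 (adjusted p = 0.352). On day 7 Tnc was at 0 to 7.02 CPM in controls, at 3.25, 0.840 and 27.9 CPM in treated libraries, and at 69.9, 31.5, 4.98 and 7.62 CPM in abscopal libraries. Of the abscopal libraries, 3 were above every control, and library 3 was below control library 7. Tnc rose in abscopal tumors on day 7 by 3.64 ± 0.65 on the log2 scale (adjusted p = 0.0278), which was the largest change among the 6 members called. Postn was at 128, 57.1, 3.91 and 19.0 CPM in the abscopal libraries of day 7 and at 0.770 to 21.7 CPM in controls, with a log2 fold change of 3.35 ± 0.76 and an adjusted p of 0.0588. Thbs2, which encodes a thrombospondin that limits vessel growth, had log2 fold changes of 3.09 ± 0.91 in treated tumors on day 3 (adjusted p = 0.23) and 1.93 ± 0.61 in abscopal tumors on day 7 (adjusted p = 0.218). Fibrillin-1 (Fbn1), the backbone of microfibrils, was at 0.416 to 40.4 CPM in day 3 controls and at 1.83 to 266 CPM in treated libraries, and Fbln2, which encodes a fibulin of elastic tissue, at 2.5 to 14.6 and 1.46 to 78.3 CPM.

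Sparc and Fn1 were abundant in all CD45- libraries. SPARC is a collagen-binding glycoprotein, and its gene was at 1207, 1614, 733 and 758 CPM in day 3 controls, at 3120, 1435, 4791, 699, 1040, 1821 and 1438 CPM in treated libraries, and at 1184 to 1749 CPM in abscopal libraries. The log2 fold change of treated over control was 0.93 ± 0.39 (adjusted p = 0.383). On day 7 it was at 778 to 1422 CPM in controls, at 979, 1044 and 1962 CPM in treated libraries and at 1905, 2006, 932 and 1397 CPM in abscopal libraries. The abscopal groups of both days had log2 fold changes of 0.48 ± 0.38 and 0.41 ± 0.19, with adjusted p-values of 1 and 0.494. Fibronectin (Fn1), which cells assemble into fibers through integrins, was at 121 to 392 CPM in day 3 controls and 105 to 832 CPM in treated libraries, with a log2 fold change of 0.43 ± 0.42 (adjusted p = 0.8). Its value in abscopal tumors on day 7 was 0.83 ± 0.34, with an adjusted p of 0.401.

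Collagen processing was read from 6 genes. Lox, which encodes the lysyl oxidase that starts crosslinking, was at 16.0, 61.5, 3.45 and 0 CPM in day 3 controls and at 231, 50.6, 346, 1.46, 10.3, 74.2 and 61.5 CPM in treated libraries, with a log2 fold change of 2.48 ± 0.99 (adjusted p = 0.365). On day 7 it was at 105, 91.9, 2.49 and 20.3 CPM in abscopal libraries and at 0.468 to 30.7 CPM in controls, with a value of 3.37 ± 0.76 and an adjusted p of 0.0585. Of its relatives in the same comparisons, Loxl1 had values near those of Lox, 2.71 and 3.14, and Loxl2 had 0.80 and 0.12. Serpinh1 (chromosome 7, 99345376 to 99353239, minus strand), which encodes the procollagen chaperone HSP47, was at 210 to 273 CPM in day 3 controls, 219 to 450 CPM in treated libraries and 156 to 333 CPM in abscopal libraries. The groups overlapped throughout, and its log2 fold change in treated tumors was 0.41 ± 0.18 (adjusted p = 0.415). On day 7 it was at 191 to 322 CPM in controls, at 279, 280 and 319 CPM in treated libraries and at 393, 268, 396 and 281 CPM in abscopal libraries, with values of 0.26 ± 0.13 and 0.39 ± 0.12 (adjusted p = 0.837 and 0.182). Pcolce, whose product speeds removal of the procollagen C-propeptide, had log2 fold changes of 1.22 in treated tumors on day 3 and 0.18 in abscopal tumors on day 7. Rcn3 had 1.69 ± 0.51 and 0.73 ± 0.33, with adjusted p-values of 0.235 and 0.468. Of these 6 genes, 6 had an unadjusted p under 0.05 in treated tumors on day 3, against 10.6% of all genes tested. In abscopal tumors on day 7, 4 did, against 9.56% of genes. At an adjusted p under 0.05, 0 of the 6 were called by edgeR in either comparison.

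Of the secreted regulators, the gelatinase gene Mmp2 was at 1.85 to 10.8 CPM in day 3 controls and 1.1 to 79.5 CPM in treated libraries, and Serpinf1, which encodes an anti-angiogenic serpin, at 5.17 to 10.8 and 6.22 to 113 CPM. Timp3, an inhibitor of metalloproteinases, was at 1.66 to 11.3 CPM in day 3 controls and 5.93 to 20 CPM in treated libraries, with a log2 fold change of 0.73 ± 0.42 (adjusted p = 0.588). On day 7 its values were -0.25 ± 0.33 in treated and -0.00 ± 0.28 in abscopal tumors, with adjusted p-values of 0.976 and 1, the lowest log2 fold change of the members in each.

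The surface and contractile genes were scarce. Pdgfra, the fibroblast receptor for platelet-derived growth factor, was at 0.617, 4.23, 0 and 0 CPM in day 3 controls and at 19.3, 3.80, 28.0, 2.19, 0.858, 5.71 and 1.62 CPM in treated libraries, with a log2 fold change of 2.83 ± 1.01 (adjusted p = 0.303). Pdgfrb (chromosome 18, 61045150 to 61085061, plus strand), the related receptor of pericytes and fibroblasts, was at 0.468 to 3.74 CPM in day 7 controls, at 1.95, 1.68 and 8.41 CPM in treated libraries and at 18.5, 11.8, 2.85 and 3.81 CPM in abscopal libraries. Library 3 of the abscopal group lay among the controls, library 4 just above them, and libraries 1 and 2 well above. Pdgfrb rose in abscopal tumors on day 7 by 2.34 ± 0.45 on the log2 scale, with an adjusted p of 0.0282, and its value in treated tumors on day 3 was 1.98 ± 0.72 (adjusted p = 0.316). Acta2, the smooth muscle actin of myofibroblasts and mural cells, was at 2.15 to 5.17 CPM in day 3 controls and 2.56 to 48.7 CPM in treated libraries (2.23 ± 0.71, adjusted p = 0.254), and its value in abscopal tumors on day 7 was 2.26 ± 0.56 (adjusted p = 0.0806).

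Thy1, a surface antigen of fibroblasts and T cells, was at 0 to 14.6 CPM in day 3 controls and at 0.732 to 101 CPM in treated libraries. Fap, a protease of activated fibroblasts, and Tagln, a contractile protein of smooth muscle, were too low for the test. Fap was at no more than 1.41 CPM in controls of either day, and at 8.90 and 14.4 CPM in treated libraries 1 and 3 of day 3, 9.47 CPM in treated library 3 of day 7 and 9.10 CPM in abscopal library 1 of day 7. Tagln was at 0 in all 4 day 3 controls and reached 2.40 CPM in treated library 3.

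The members differed in how much they varied between libraries. As the standard deviation of log2(CPM + 1) over the 18 CD45- libraries of a day, 26 of 38 members with a mean count of at least 10 were above 1 on day 3 and 23 of 36 on day 7. The median over all genes with that count was 0.28 on day 3 and 0.25 on day 7. Col3a1 was the most variable member, with 2.57 and 2.48, followed on day 3 by Col1a2 (2.38), Col1a1 (2.34) and Dcn (2.29). Fbln1, which encodes a fibulin of elastic tissue and basement membrane, had 0.23 and 0.17, and Serpinh1 0.36 and 0.28. Fbln1 was at 54.5 to 95.1 CPM over all day 3 libraries, and its group ranges overlapped on both days. Library by library the variable members peaked together. Treated library 3 held the highest level for 37 of the 38 members on day 3, and the exception was Timp3, which peaked in abscopal library 6. On day 7 treated library 3 was the highest for 19 of 36 members and abscopal library 1 for 13.

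The lowest libraries show which members stayed. In day 3 control library 4, Col1a1 was at 7.90 and Col3a1 at 0.832 CPM, the latter from 3 counts or fewer, while Sparc was at 758, Serpinh1 at 210, Fn1 at 121, Fbln1 at 70.7, Pcolce at 34.9, and Col4a1 and Loxl2 each at 33.3 CPM. In that library Col1a1, Col1a2 and Col3a1 made up 0.933% of the members' summed level and Sparc 56.6%. In treated library 3 of day 3 the shares were 52.9% and 20.4%. On day 7 the shares of the 3 collagens ran from 0.818% in control library 10 to 42.9% in treated library 3.

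Ratios of counts within a library were taken over Col1a2, so that a gene with a narrow range of levels has a wide range of ratios. Over the 17 libraries of each day with at least 20 counts of Col1a2, the ratio of Col1a1 to Col1a2 ran from 0.980 to 1.69 on day 3, a 1.73-fold range, and from 0.905 to 2 on day 7. The ranges were 2.45-fold and 2.93-fold for Col3a1, 4.14-fold and 4.24-fold for Dcn, 4.48-fold and 4.6-fold for Postn, and 3.03-fold and 3.88-fold for Lox, each over Col1a2. For Sparc over Col1a2 the ratio ranged 45.1-fold and 78.7-fold, for Col4a1 91.3-fold and 69.4-fold, and for Serpinh1 173-fold and 140-fold. Col4a1 had a 2.54-fold range over Col4a2 in the 16 libraries of day 3 with at least 20 counts of Col4a2 and a 2.14-fold range in the 15 of day 7. The exons of these genes overlap on opposite strands and the strand setting of the counting is not given in the sources used here, so the same reads may enter both counts. The libraries are the only points behind these ranges, and they share depth and scaling within a ratio.

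Other fibroblast genes were read from a separate list of 10 with no member in it. On day 3 their summed level was 84.0 to 357 CPM in controls, 85.6 to 2617 CPM in treated libraries and 113 to 268 CPM in abscopal libraries, with the 2 highest values, 2617 and 1182 CPM, in treated libraries 3 and 1. Of the 8 that were tested, 0 were called in treated against control tumors, against 0.0916% of all genes, 8 had an unadjusted p under 0.05, against 10.6%, and the median log2 fold change was 2.45. On day 7 the sum was 995 CPM in treated library 3, 590 and 395 CPM in abscopal libraries 1 and 2, and 83.8 to 210 CPM in all others. The libraries that were high for the members were high for these genes too. On day 3 the endothelial sum was 79.3 to 167 CPM and the pericyte sum 62.4 to 159 CPM over all groups, with the highest values in control library 2 and abscopal library 4. The immune sum was 5.32 to 19.4 CPM. The adipocyte sum was highest in treated library 3, at 16.4 CPM against 1.93 to 12.2 CPM, the skeletal muscle sum was at most 3.83 CPM, and the Schwann cell sum, 33.2 to 116 CPM, was highest in treated library 4. Keratinocyte genes summed to 27.2 to 78.8 CPM. How far the number of fibroblasts sorted accounts for the levels was not tested.

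**Figure D4:**
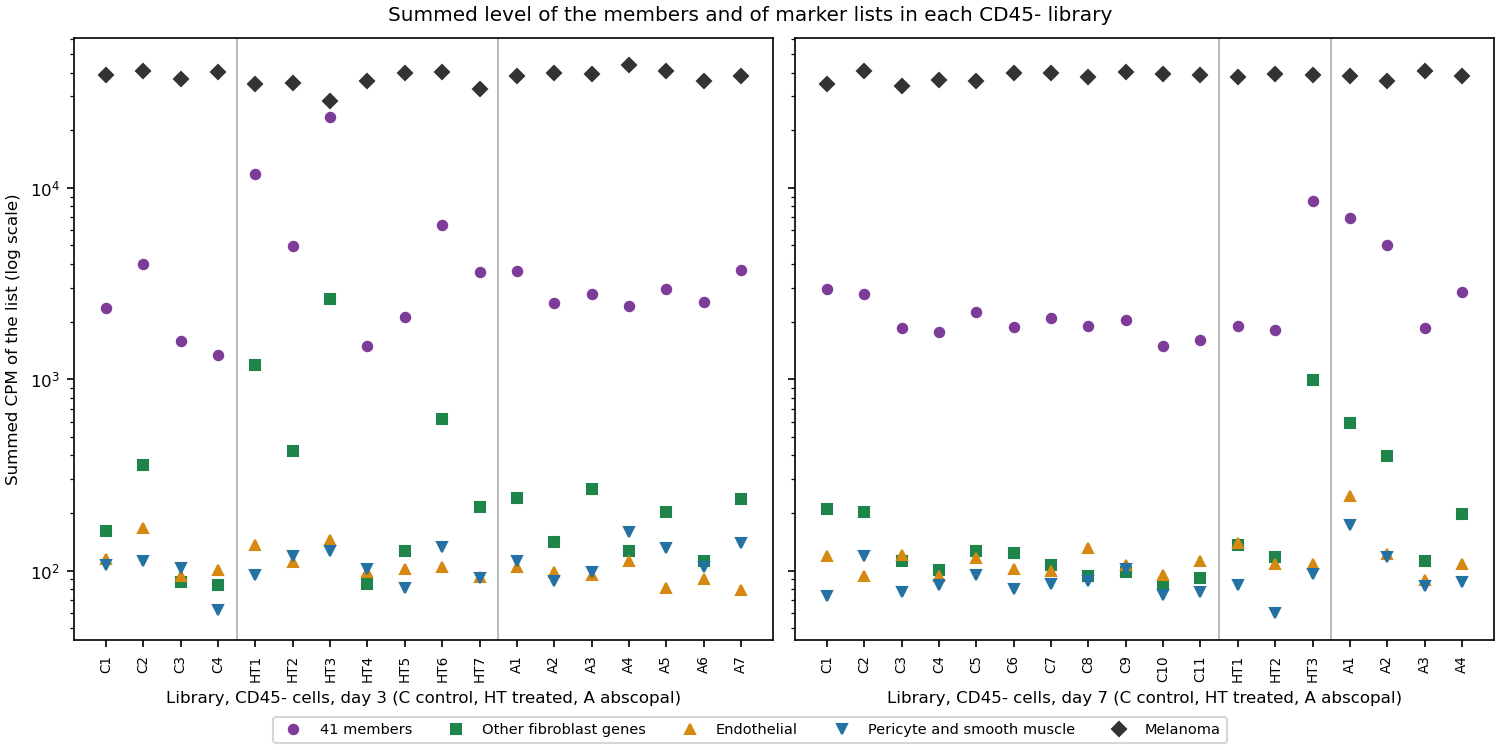
Summed CPM, on a log scale, of the 41 members and of lists of other fibroblast, endothelial, pericyte and melanoma genes in each CD45- library. The other fibroblast genes peak in the same libraries as the members, treated library 3 on day 3 at 2617 CPM and treated library 3 on day 7 at 995 CPM, and the melanoma sum lies between 28347 and 43737 CPM in all libraries.

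Genes around the members were read from 4 pathway lists. Of 22 genes of collagen folding and modification in the endoplasmic reticulum, 19 were tested on day 3 and 0 were called in treated against control tumors by edgeR, 6 had an unadjusted p under 0.05, and the median log2 fold change was 0.16. For TGF-beta supply and targets, 0 of 12 were called, 6 had an unadjusted p under 0.05 and the median was 0.54. Matrix receptors, mostly integrins, had 0 of 12 called, 2 with an unadjusted p under 0.05 and a median of 0.11, and other matrix genes of elastic fibers and basement membranes 0 of 17, 6 and 0.53. Over all genes tested, 0.0916% were called and 10.6% had an unadjusted p under 0.05. Treated library 3 was the highest of the 18 libraries of day 3 for 3 of these lists, at 1320 CPM against 416 to 774 CPM for other matrix genes, 491 against 123 to 391 CPM for TGF-beta, and 1951 against 1460 to 1923 CPM for collagen folding, and for matrix receptors it was within the range of the others. In abscopal against control tumors on day 7, 0 of 20, 0 of 12, 0 of 12 and 1 of 16 were called and 6, 6, 2 and 6 had an unadjusted p under 0.05, with medians of 0.07, 0.58, 0.10 and 0.38, where 0.291% of all genes were called and 9.56% had an unadjusted p under 0.05. The gene called was Col8a1, a short-chain collagen of vessels, with a log2 fold change of 2.89 ± 0.59 and an adjusted p of 0.0308. In the 4 lists, treated tumors on day 7 had 0 genes called and 3, 1, 0 and 3 with an unadjusted p under 0.05, and abscopal tumors on day 3 had 0 called and 1, 0, 0 and 0, against 6.08% and 5.19% of all genes with such a p.

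A separate fit of all CD45- libraries tested whether the effect on day 7 differed from that on day 3. For treated against control tumors, 0 of 40 members were called, against 0% of 11548 genes, 0 had an unadjusted p under 0.05, against 6.02% of genes, and the median difference, day 7 minus day 3, was -0.16 on the log2 scale. For abscopal against control tumors, 0 of 40 members were called, against 0.00866% of genes. In this case 10 had an unadjusted p under 0.05, against 6.87% of genes, and the median difference was 1.91. Col4a1 had the lowest adjusted p of the members, 0.509, with a difference of 1.77 ± 0.47, and without the filter 4 members were called. DESeq2 called 0 for either group. The rise of the 6 members on day 7 is therefore not shown to differ from day 3. Control tumors of day 7 against day 3 had 0 of 40 members called by edgeR or DESeq2, against 0% of genes, and 0 with an unadjusted p under 0.05, against 4.35% of genes, with a median log2 fold change of -0.72. Day and any unlabelled batch cannot be told apart in these tests.

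In CD45+ cells of control tumors the 41 genes summed to 924 to 1535 CPM on day 3 and 982 to 1374 CPM on day 7, against 1338 to 4009 and 1489 to 2972 CPM in CD45- cells, and Fn1 alone was at 388 to 965 CPM in those CD45+ libraries. Of the 41, 16 had a median of 0 CPM over the CD45+ libraries. In control tumors on day 3, 26 of 40 members tested differed between the fractions, against 65.1% of 13387 genes, and 23 of them were higher in CD45- cells, against 29.3% of genes. On day 7 32 of 40 differed, against 78.9% of genes, with 29 higher in CD45- cells, against 36.6%. Sparc was higher in CD45- cells by 6.90 ± 0.63 on the log2 scale on day 3 and by 6.25 ± 0.38 on day 7, Serpinh1 by 6.42 ± 0.45 and 6.22 ± 0.27, Fbln1 by 5.49 ± 0.41 and 5.74 ± 0.26, and Col4a1 by 3.93 ± 0.53 and 3.27 ± 0.32. Fn1, Thy1 and Vcan went the other way, with log2 differences of -1.46 ± 0.43, -6.75 ± 0.79 and -4.55 ± 0.73 on day 3 and -1.85 ± 0.27, -7.64 ± 0.53 and -6.38 ± 0.53 on day 7. T cells are known to carry THY1, and macrophages to transcribe Fn1 and Vcan.

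**Figure D5:**
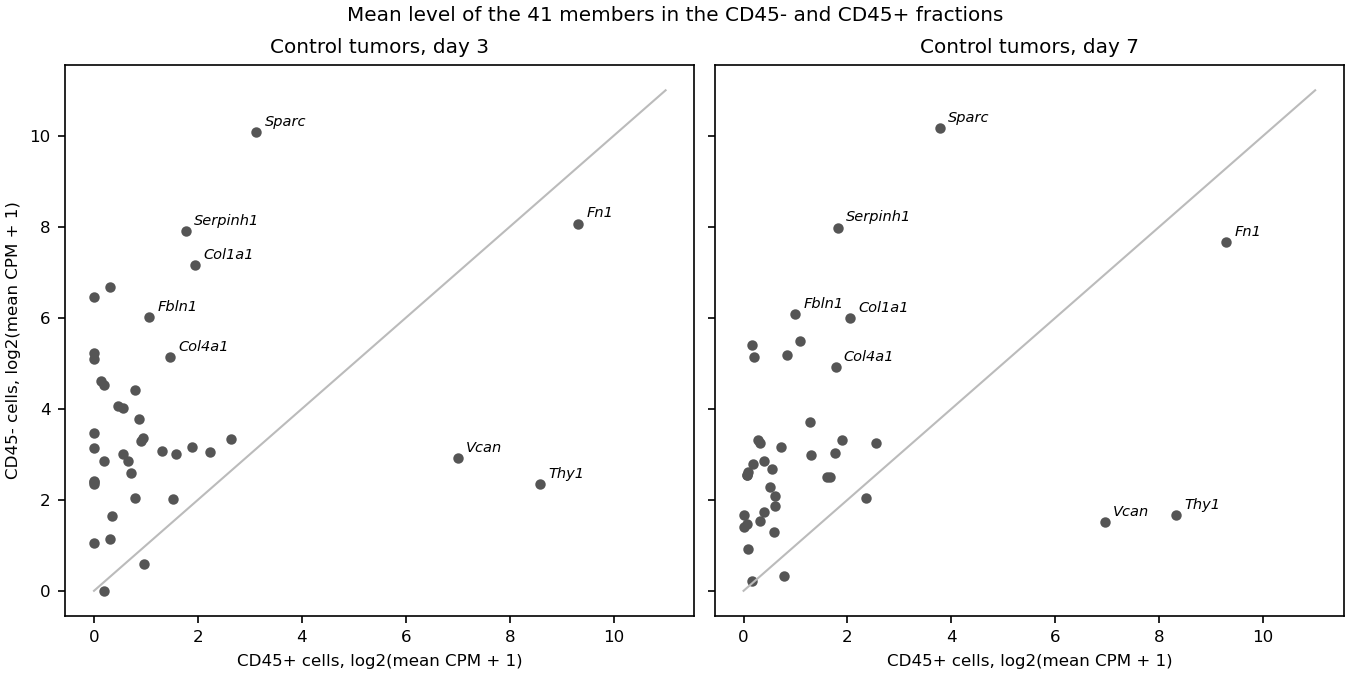
Mean level of each of the 41 members in control tumors, as log2(mean CPM + 1), in CD45+ cells (x axis) and CD45- cells (y axis) on days 3 and 7, with a line of equal level. Fn1, Thy1 and Vcan lie below the line on both days, and Sparc, Serpinh1, Fbln1 and Col4a1 lie well above it.

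Within CD45+ cells, 5 members passed the filter on day 3 and 6 on day 7. On day 3, 0 of 5 were called in treated against control tumors, against 7.79% of 10264 genes, and 0 had an unadjusted p under 0.05, against 23.9%. In abscopal against control tumors 0 of 5 were called, against 0% of genes, and 2 had an unadjusted p under 0.05, against 7.76%. DESeq2 called 0 in both, and edgeR without the filter called 4 and 2. Between treated and abscopal tumors 1 of 5 was called, against 5.44% of genes. It was Fn1, which was at 432, 452, 701 and 965 CPM in controls, at 419, 391, 777, 563, 490 and 349 CPM in treated libraries and at 250 to 421 CPM in abscopal libraries. Treated and abscopal libraries overlapped between 349 and 421 CPM, and Fn1 was higher in treated tumors by 0.88 ± 0.22 on the log2 scale, with an adjusted p of 0.0208. The call was lost without treated library 3 or without abscopal library 6. Treated library 3 had an immune marker sum of 20073 CPM against 5646 to 10679 CPM in the other treated libraries, a matrix receptor sum of 2674 against 1031 to 1644 CPM, and Thy1 at 59.1 against 210 to 337 CPM. The part of these differences in the Fn1 result was not tested. DESeq2 called 1 member there too, and edgeR without the filter 4. All abscopal libraries lay below all controls for Fn1, as they did for 1.29% of genes, and the log2 fold change of -0.97 ± 0.25 had an adjusted p of 0.339. On day 7, 0 of 6 members were called in each of the 3 comparisons by edgeR or DESeq2, against 0% of 10817 genes by edgeR, and 0 (treated against control), 1 (abscopal against control) and 1 (treated against abscopal) had an unadjusted p under 0.05, against 3.15%, 7.45% and 2.69% of genes. Sparc was at 108 CPM in abscopal library 4 of day 3 and at 2.72 to 39.5 CPM in the other abscopal libraries, and Mlana was at 115 CPM in that library and at 2.83 to 27.2 CPM in those others. The part of melanoma RNA in the CD45+ level of Sparc was not tested.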

How the data were processed

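RNA of flow-sorted CD45+ and CD45- cells (RNeasy) was sequenced as 3' QuantSeq libraries (101 bp, single-end). Per the labels the submitters used bcl2fastq, Trim Galore 0.5.0, STAR 2.6.0 and featureCounts on GRCm38, and the study's methods state that unique molecular identifiers were collapsed. The strand setting of the counting is not given in the sources used here. The authors deposited whole-number counts per gene and library in 4 tables, 1 per fraction and day, with 55487 gene lines each. Lines sharing a symbol with another (120) were kept apart, 2 unnamed total lines were dropped, and all columns belonged to a labelled library.

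Levels were computed as CPM over the library total. Differences were tested in edgeR 4.0.16 (R 4.3.3) with TMM scaling, filterByExpr (minimum count 10, total 15), the quasi-likelihood test over all 3 groups of a table, and Benjamini-Hochberg adjustment over all genes tested at 0.05. Standard errors were set so that the squared ratio of fold change to error equals the F statistic. Interactions were tested over all CD45- libraries and fractions over all 70 libraries. Alternatives were DESeq2 1.42.0, limma 3.58.1 (voom), library totals, no filter, only the 2 groups compared, a replicate block and leaving out each library. Of these, only the unfiltered fit of treated against control tumors on day 3 has the number of all genes called beside the members. The other counts of members called in alternative fits show only how the calls depended on the fit. The edgeR step was tested on simulated counts. Summaries and figures used Python 3.11.15, numpy 2.4.6, pandas 2.3.3 and matplotlib 3.10.9.

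No pair of libraries within a group differed by less than sampling noise, so each was counted as 1 sample. Correlations of same-numbered libraries were not all above 0.1, so replicate numbers were not used to pair libraries. The 41 genes and all gene lists were chosen with earlier results of these data known. All 41 may be named with levels. Fold change, error and adjusted p are given for members called and, against control in CD45- cells, for a chosen set of 20, and other members appear by counts and ranges. Coordinates and exon overlaps are from GENCODE vM21 (GRCm38). Exons of 4 members overlap another gene on the same strand (Col3a1, Loxl2, Pdgfra, Pcolce) and those of 14 on the other strand, so some of their counts may belong to neighbours.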

Additional observations from a re-analysis of the deposited data

Results flagged for a closer look

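Of 103 sets of 4 to 10 libraries examined, 16 held a library far from the rest of its group by Dixon's 95% criterion. Its chance rate of about 1 in 20 sets holds for normally distributed values. The CPM values were skewed or in part 0, so that rate does not apply here. Groups of 3 or 11 libraries, among them the treated CD45- libraries of day 7, were not examined. Among day 3 CD45- controls, library 2 stood above the other 3 for Col6a1 (4.23 CPM, the others at 0), Pdgfra (4.23 CPM against 0 to 0.617), Tnc (17.8 CPM against 1.66 to 3.70) and Acta2 (5.17 CPM against 2.15 to 2.50). Among day 3 histotripsy-treated CD45- libraries, library 3 stood above the other 6 for Col1a2 (3981 CPM against 18.3 to 1581), Col3a1 (3423 CPM against 9.51 to 1465), Col6a1 (119 CPM against 1.1 to 46.0) and Lum (100 CPM against 4 to 44.5). The same library did so for Postn (306 CPM against 1.46 to 117), Pdgfrb (26.4 CPM against 1.1 to 9.39), Acta2 (48.7 CPM against 2.56 to 13.3) and Tagln (2.40 CPM against 0 to 0.989). These values are from the same libraries and are not independent of each other. Among day 3 histotripsy-abscopal CD45- libraries, Lox was at 56.0 CPM in library 7 (7.41 to 25.1 in the others), Timp3 at 22.2 CPM in library 6 (6.12 to 11.7) and Tagln at 0.352 CPM in library 2 (0 in the others), the last from 3 counts or fewer. In CD45+ cells, Sparc was at 108 CPM in abscopal library 4 of day 3 and at 2.72 to 39.5 CPM in the others.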

How the results depend on the processing

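The number of members called depended on the fit, while for treated against control tumors on day 3 no log2 fold change of the chosen set reversed. DESeq2 called 1 member for treated against control and 6 for treated against abscopal tumors on day 3, and 1 for abscopal against control tumors on day 7, where limma-voom called 0 and a fit of only the 2 groups 17. Library totals gave 1 for treated against abscopal on day 3. Without the filter, 32 and 32 were called for treated against control and against abscopal tumors on day 3, 24 and 33 for treated and abscopal against control on day 7, and 4 for the abscopal difference between days. In CD45+ cells the unfiltered counts were 4 (treated against control), 2 (abscopal against control) and 4 (treated against abscopal) on day 3 and 1 (abscopal against control) on day 7. For all of these the cause was not tested. With the replicate number as a block, 3 members were called for treated against abscopal on day 3 and 0 for abscopal against control on day 7, and no other count moved by over 1.5 times. Same-numbered CD45- libraries had correlations from -0.38 to 0.46. Leaving out 1 library gave 0 to 8 for treated against abscopal on day 3, 0 to 5 for treated and 0 to 27 for abscopal against control on day 7, and 0 to 1 for treated against abscopal in CD45+ cells on day 3.

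Some log2 fold changes crossed 0. For abscopal against control tumors on day 3, Postn was 0.28 and Rcn3 0.00 with the replicate block, Postn 1.17 with limma-voom, Thbs2 -0.05 with DESeq2, and Serpinh1 -0.01 with library totals and with limma-voom. With 1 library left out, Col1a1 ran from -0.11 to 1.77, Col1a2 from -0.04 to 2.03, Postn from -0.48 to 1.59, Lox from -0.30 to 2.02, Serpinh1 from -0.08 to 0.09, Thbs2 from -0.31 to 0.88 and Tnc from -0.17 to 1.76. For treated against control tumors on day 7, the lowest values, all without treated library 3, and the highest were -0.13 and 3.79 for Col1a2, -0.07 and 4.40 for Dcn, -0.08 and 3.85 for Postn, -0.75 and 0.90 for Fn1, -0.13 and 0.39 for Sparc, -0.15 and 3.16 for Lox, -1.03 and 3.25 for Pdgfra, -0.55 and 2.52 for Thbs2, and -0.01 and 2.65 for Tnc. For abscopal against control tumors on day 7, Lum was -0.11 with the replicate block and -0.16 to 1.05 with 1 library left out, and Timp3 was 0.02 with library totals, 0.01 without the filter, 0.04 with limma-voom and -0.13 to 0.20 with 1 library left out. A planned fit of libraries with at least 1000000 counts left out no CD45- library and gave no value. Depth limits the scarce members: 3 counts were up to 2.78 CPM in a CD45- library, which is near the control level of Fap, Tagln, Pdgfra and Col6a1.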
